A study of Mus musculus with 8 samples.

Results

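Von Willebrand factor, tissue factor, the thrombin receptor, thrombomodulin, the protein C receptor, tissue factor pathway inhibitor, the 2 plasminogen activators and the urokinase receptor set how blood clots and how clots dissolve at the vessel wall. Their 9 genes, Vwf, F3, F2r, Thbd, Procr, Tfpi, Plat, Plau and Plaur, were taken by symbol from a table of 23284 genes, and all 9 were found. The samples were whole lungs of C57BL/6 mice that were themselves wild type (WT), had received donor bone marrow, and spent 3 days in hypoxia. In 4 mice the donor marrow was triply n/i/eNOS-/-, so that it lacked the neuronal, inducible and endothelial nitric oxide synthases (called NOS-null marrow here), and in 4 mice it was WT (called WT marrow). The mice's own lung cells, endothelium included, kept all 3 synthase genes in both groups, and neither the age of the mice nor how many lung cells came from the donor is given in the sources used here. By its title the series concerns myelocytic nitric oxide synthases in hypoxic pulmonary hypertension, and normoxic lungs were not analysed here.

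Von Willebrand factor is a long adhesive protein stored in endothelial granules called Weibel-Palade bodies and in platelets, and it tethers platelets to a damaged wall. Tissue factor starts clotting when it meets blood, and tissue factor pathway inhibitor shuts that start off. Thrombin formed in this way signals to cells through its receptor, but when it binds thrombomodulin it instead activates protein C, which the protein C receptor presents, and activated protein C stops further clotting. Tissue-type and urokinase-type plasminogen activators make plasmin, which cuts fibrin, and the urokinase receptor holds urokinase on the cell surface, above all on leukocytes. The lung is rich in capillary endothelium, and nitric oxide is known there as an inhibitor of platelet activation and of Weibel-Palade body release. In whole lung RNA fewer cells of a type and less RNA per cell cannot be told apart, and F3, Procr, Plau and Plaur are also known outside the vessel wall, in epithelium, mesothelium or leukocytes.

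Gene values are given as scaled reads, which are the authors' read counts after scaling to a common depth, and levels between genes are compared per length in FPKM (fragments per kilobase of transcript, scaled to depth). The libraries summed to 7767065 to 8625142 scaled reads. The inducible synthase gene Nos2, a check of the marrow genotype, was at 13.3, 20.8, 40.4 and 43.5 scaled reads with NOS-null marrow, below all 4 values with WT marrow (87.4 to 115), while Nos1 was at 0 in 7 of the 8 libraries and Nos3 was at 194 ± 18.0 against 184 ± 15.8 (SD, n = 4 each). Endothelial markers were high in every library, with the 10 genes of the list adding up to 1539 to 1806 FPKM with NOS-null marrow, against 1525 to 1725 FPKM with WT marrow, and none was at 0. On the first principal component of all tested genes, NOS-null marrow replicates 1 and 2 stood farthest from WT marrow (−57.7 and −32.3, against −3.35 and −1.40 for replicates 3 and 4 and 17.7 to 27.2 with WT marrow). Values without those 2 libraries are given for some genes only. Among the genes taken by symbol, this was done where a direction turned or a log2 change moved by over 1.5 times. For called genes of the other lists, it is stated where the call then ended. For most other genes no such value is given, so their changes may rest on those 2 libraries.

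Of the 9 genes only Vwf rose, and the other 8 did not pass the test. Each gene was tested with limma on log2(scaled reads + 1), NOS-null marrow minus WT marrow, and called where its p, adjusted by Benjamini-Hochberg over 14008 genes, was under 0.05. Calls were made for 4.05% of these genes, 1.87% higher and 2.18% lower with NOS-null marrow. The 9 genes had a median log2 change of 0.08, against 0.00051 over all tested genes, with 7 changes positive and 2 negative. An unadjusted p under 0.05 was reached by 4 of the 9 (Vwf, Plaur, Plau and Procr), against 26.6% of all tested genes. For Vwf and Plaur the groups did not overlap, with all NOS-null marrow values above all WT marrow values, against 17.1% of all tested genes without overlap (7.82% higher and 9.29% lower). Nothing in the labels says how the mice of a group relate, so p-values measure only how much these samples spread, which may in part be technical.

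**Figure D1:**
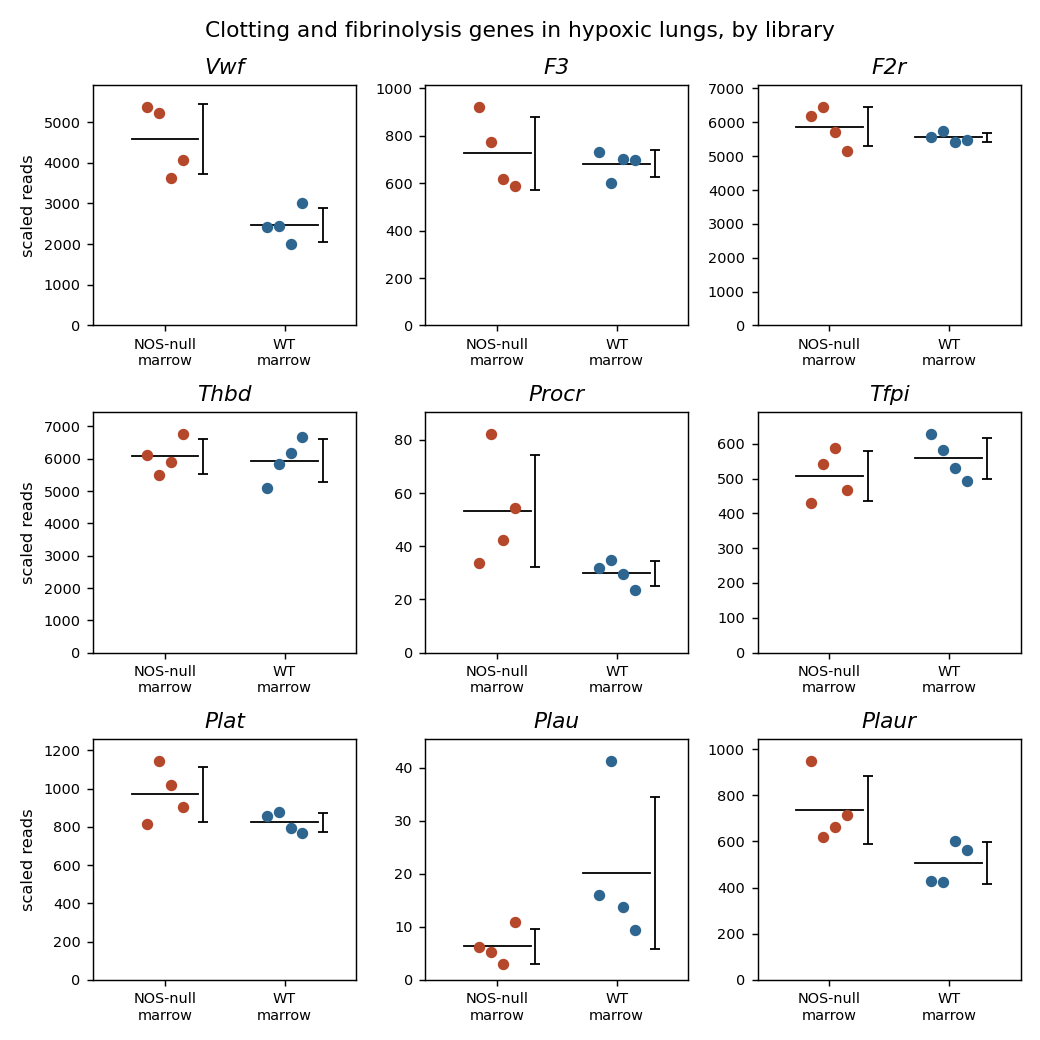
Scaled reads of each of the 9 genes in the 4 NOS-null marrow libraries and the 4 WT marrow libraries (points), with the group mean (line) and SD (bar), with replicates 1 to 4 from left to right in each group and each axis starting at 0. The groups do not overlap for Vwf and Plaur, and Plau is the gene of fewest reads.

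Per length, F2r and Thbd were the most abundant of the 9 genes, and the order of the rest differed between the groups mainly through Vwf. With NOS-null marrow the mean levels were F2r 227 ± 22.2 FPKM, Thbd 206 ± 18.1 FPKM, Plaur 73.8 ± 14.8 FPKM, Vwf 63.4 ± 11.8 FPKM, F3 51.8 ± 11.03 FPKM, Plat 49.8 ± 7.33 FPKM, Tfpi 26.3 ± 4.38 FPKM, Procr 4.89 ± 1.94 FPKM and Plau 0.352 ± 0.186 FPKM (SD, n = 4). With WT marrow they were F2r 214 ± 5.21 FPKM, Thbd 202 ± 22.3 FPKM, Plaur 50.7 ± 9.20 FPKM, F3 48.7 ± 4.10 FPKM, Plat 42.3 ± 2.59 FPKM, Vwf 34.2 ± 5.68 FPKM, Tfpi 30.2 ± 2.99 FPKM, Procr 2.75 ± 0.430 FPKM and Plau 1.12 ± 0.800 FPKM (SD, n = 4). The ranges of F2r and Thbd overlapped in both groups and stood clear of the rest. Plaur, Vwf, F3 and Plat overlapped from each to the next with NOS-null marrow. In the WT marrow group Plaur, F3, Plat, Vwf and Tfpi did, as did Procr and Plau. Vwf thus held position 4 in the NOS-null marrow group, against position 6 in the WT marrow group. Among all genes of the table ranked by mean FPKM, F2r was at 418 and Thbd at 460, while Procr was at 10449 and Plau at 13858.

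**Figure D2:**
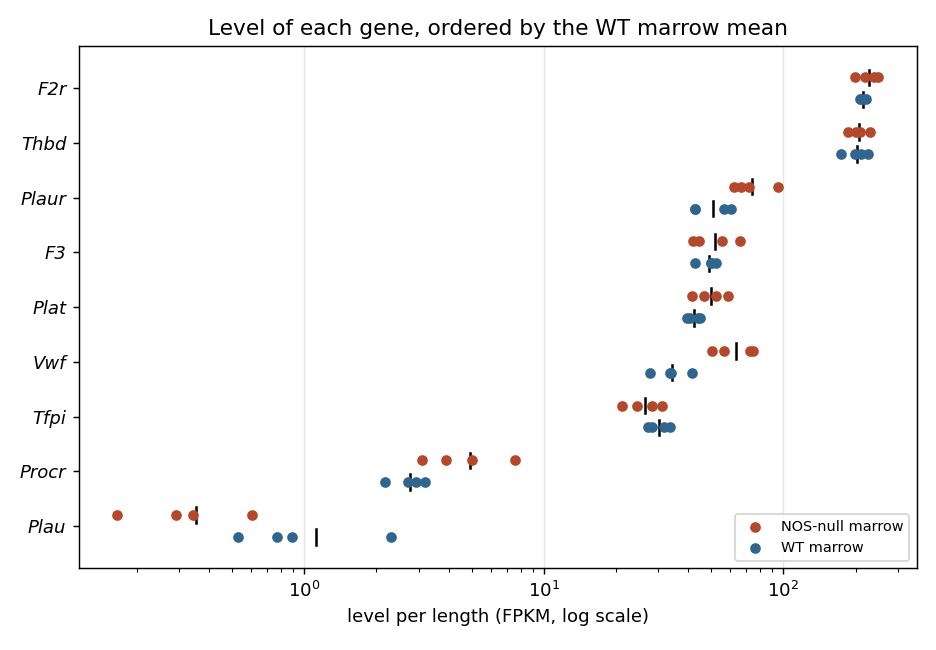
Level of each gene in FPKM on a log axis, with NOS-null marrow libraries above WT marrow libraries in each row and the mean as a black tick. F2r and Thbd lie near 200 FPKM in every library, and Plau lies below 3 FPKM throughout.

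Vwf (chromosome 6, 125546774 to 125686679, plus strand; positions here are from the GENCODE annotation of GRCm38, the assembly of mm10) stood at 5378, 5225, 3638 and 4075 scaled reads in NOS-null marrow replicates 1 to 4. With WT marrow it stood at 2430, 2441, 2011 and 3010. Every NOS-null marrow value lay above every WT marrow value, and replicates 1 and 2 were the highest. The means were 4579 ± 855 against 2473 ± 410 scaled reads (SD, n = 4 each), a ratio of 1.85. The log2 change was 0.88 (SE 0.15, 95% interval 0.55 to 1.22, limma adjusted p = 0.0191). Without NOS-null marrow replicates 1 and 2 together it was 0.65 (adjusted p = 0.047). Vwf no longer passed when NOS-null marrow replicate 2 was left out (adjusted p = 0.0632), nor when WT marrow replicate 1, 2 or 3 was (0.0744, 0.0628 and 0.0588), while the log2 change over the 8 fits that left out 1 library ran from 0.79 to 0.99. Those 4 fits called 95, 71, 81 and 87 genes over the whole table, against 567 with every library.

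The general endothelial genes did not pass the test beside Vwf. Of 10 endothelial markers none was called by limma (2 at an unadjusted p under 0.05) and all overlapped between the groups, with a median log2 change of −0.03. Those 2 went in opposite directions, Eng at 0.32 (adjusted p = 0.131) and Tek at −0.39 (adjusted p = 0.158). Pecam1, an adhesion molecule of all endothelium, was at 9257 ± 997 against 8128 ± 223 scaled reads (log2 change 0.18, adjusted p = 0.227). The log2 ratio of Vwf to Pecam1 in FPKM was −2.42, −2.41, −2.76 and −2.48 in NOS-null marrow replicates 1 to 4 and −3.25, −3.26, −3.50 and −2.86 with WT marrow. The ratio was higher in every NOS-null marrow library than in any WT marrow library, by 0.70 on average. The same ratio for Thbd overlapped between the groups (−0.80 ± 0.26 against −0.65 ± 0.19).

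Platelets and megakaryocytes, the other source of Vwf, were read from 10 markers, of which 9 were tested and none called (3 at an unadjusted p under 0.05). Their summed level was 244, 110, 77.1 and 110 FPKM in NOS-null marrow replicates 1 to 4 and 131 to 180 FPKM with WT marrow. It was thus lower in NOS-null marrow replicates 2, 3 and 4 than in any WT marrow library, while Vwf was higher in those 3 libraries. The 2 most abundant markers, the platelet chemokine gene Pf4 and Ppbp, differed there. Ppbp was at 18.4, 11.7 and 19.6 FPKM, below all WT marrow values (41.6 to 75.5 FPKM). Pf4 was at 73.2, 54.4 and 70.3 FPKM, with WT marrow values of 64.6 to 72.3 FPKM. The lower sum thus did not hold for every marker, although 8 of the 9 tested changes were negative. Pf4 had a log2 change of 0.19 (adjusted p = 0.582) and Ppbp one of −1.31 (adjusted p = 0.0862), and no marker of the list was at 0 throughout. Of 6 lymphatic markers Lyve1, a hyaluronan receptor also made by some macrophages, rose (0.65, adjusted p = 0.0415) and the chemokine Ccl21a, whose near-identical copies make its count uncertain, fell (−0.55, adjusted p = 0.0458), and their summed levels overlapped (174 to 227 FPKM against 161 to 190 FPKM). Smooth muscle markers summed to 1050 to 1347 FPKM against 2024 to 2342 FPKM, with 4 of 5 called lower (Acta2, Tagln, Cnn1 and Des), and red cell markers to 5632 to 7285 FPKM against 2747 to 3507 FPKM, with 3 of 5 called higher (Hbb-b1, Alas2 and Slc4a1). The calls of Acta2, Tagln and Alas2 held under all 17 alternatives, while those of Des, Hbb-b1, Cnn1, Lyve1, Ccl21a and Slc4a1 were lost under 4, 5, 7, 7, 8 and 11 of them. Leaving out NOS-null marrow replicate 2 ended all 6 of these calls, and leaving out replicates 1 and 2 together ended all but that of Des, with Ccl21a then at −0.34 (adjusted p up to 0.13 over all alternatives). Of single WT marrow libraries, replicate 1 ended each of these 6 calls when left out, replicate 2 all but that of Slc4a1, replicate 3 all but that of Des, and replicate 4 those of Cnn1, Lyve1, Ccl21a and Slc4a1. The Slc4a1 call also ended when NOS-null marrow replicate 1 or 4 was left out. The part of any of these cells in the Vwf difference was not tested.

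No gene that processes Vwf or shares its granule passed. Of 8 such genes, 7 were tested and none was called by limma (3 at an unadjusted p under 0.05), with a median log2 change of 0.10. Cd63, a granule membrane protein also of lysosomes, was at 351 ± 41.6 against 431 ± 38.9 FPKM (log2 change −0.30, adjusted p = 0.109). Rab27a, a small GTPase that guides granules to the membrane, was at 26.6 ± 6.11 against 21.0 ± 4.53 FPKM (0.34, adjusted p = 0.257). Selp, the adhesion molecule P-selectin of the same granule, had a log2 change of −0.09 (adjusted p = 0.836). The groups did not overlap for 3 of the 7 tested genes, against 17.1% of all tested genes. These 3 genes were chosen after their values were seen, and none passed. They were Angpt2, the vessel ligand angiopoietin 2 (−0.43, adjusted p = 0.0964), Cd63, and Myrip, a partner of Rab27a on the granule (1.55, adjusted p = 0.0669). Myrip was at 11.9 and 10.3 FPKM in NOS-null marrow replicates 1 and 2, but at 3.23 and 2.99 FPKM in the other NOS-null marrow libraries. With WT marrow its values lay between 1.59 and 2.62 FPKM. Much of the Myrip change thus came from replicates 1 and 2. Adamts13, whose enzyme cuts Vwf in plasma, was at or under 0.107 FPKM in all libraries and at 0 in 3 of them, so no ratio to it was formed.

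The genes whose pattern over the 8 libraries was most like that of Vwf were Hist1h2be, a histone gene, Scnn1a, a subunit of the epithelial sodium channel, and Lrtm2. Likeness was the mean absolute difference between the 2 genes' deviations from their own means on the log2 scale, which was 0.07, 0.09 and 0.10 for these 3 of 14007 genes compared. Scnn1a stood at 3945 to 5174 scaled reads with NOS-null marrow, against 2360 to 2792 with WT marrow (log2 change 0.84, adjusted p = 0.00743). Genes picked for their likeness to Vwf must have a change near that of Vwf, so these values describe the choice only. Hist1h2be rests on 14.8 to 20.4 against 7.72 to 10.9 scaled reads and did not pass (adjusted p = 0.0647), and as it has near-identical family members its count is uncertain.

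The start of clotting and its inhibitor showed no called change. F3 (chromosome 3, 121723537 to 121735048, plus strand), which encodes tissue factor, was at 922, 773, 619 and 586 scaled reads in NOS-null marrow replicates 1 to 4 and at 729, 599, 701 and 700 with WT marrow. Replicates 1 and 2 of NOS-null marrow lay above all WT marrow values and replicate 4 lay below them all, so the groups overlapped. The log2 change was 0.07 (95% interval −0.24 to 0.38, adjusted p = 0.779), and it was −0.17 (adjusted p = 0.394) without NOS-null marrow replicates 1 and 2. Tfpi (chromosome 2, 84432855 to 84476775, minus strand), the gene of tissue factor pathway inhibitor, was at 431, 541, 588 and 468 against 628, 583, 529 and 493 scaled reads. Its groups overlapped too (log2 change −0.14, 95% interval −0.40 to 0.11, adjusted p = 0.445, and −0.08 without NOS-null marrow replicates 1 and 2). The log2 ratio of F3 to Tfpi in FPKM was 1.64, 0.97, 0.50 and 0.77 with NOS-null marrow, against 0.43 to 0.88 with WT marrow. Only NOS-null marrow replicates 1 and 2 exceeded the WT marrow libraries in this ratio.

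The related inhibitor Tfpi2 and the heparan sulfate enzyme gene Hs3st1 did change, in opposite directions. Tfpi2, which inhibits plasmin and other proteases of the matrix, fell to 32.9 ± 10.6 scaled reads in NOS-null marrow libraries, against 72.5 ± 18.8 in WT marrow libraries (log2 change −1.15, SE 0.27, adjusted p = 0.0458). Its FPKM values were 1.69, 2.86, 3.71 and 3.79 against 9.11, 5.93, 5.15 and 6.41, without overlap. Hs3st1, whose enzyme adds the sulfate by which heparan binds antithrombin, rose to 254 ± 47.5 scaled reads, against 156 ± 31.3 (0.70, SE 0.17, adjusted p = 0.0466), also without overlap. These were 1 gene lower and 1 higher among 7 tested of 11 other anticoagulant genes, whose median log2 change was 0.13. The 2 most abundant of the list did not pass, Anxa5, which coats exposed phospholipid, at 522 ± 29.5 against 582 ± 36.0 FPKM (adjusted p = 0.23) and Serpine2, a thrombin inhibitor, at 140 ± 17.9 against 149 ± 13.3 FPKM (adjusted p = 0.595). Neither call held when NOS-null marrow replicate 2, NOS-null marrow replicates 1 and 2 together, or any of WT marrow replicates 1 to 3 were left out. Hs3st1 also did not pass with any other NOS-null marrow library left out, nor Tfpi2 with WT marrow replicate 4 left out (adjusted p up to 0.141 for both genes).

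The thrombin receptor and its diverting partner thrombomodulin were nearly level between the groups. F2r (chromosome 13, 95601803 to 95618487, minus strand), the protease-activated receptor gene for thrombin, was at 6192, 6459, 5703 and 5152 against 5554, 5742, 5432 and 5487 scaled reads. NOS-null marrow replicates 1 and 2 were the 2 highest of the 8 libraries and replicate 4 the lowest. The log2 change was 0.08 (SE 0.08, 95% interval −0.11 to 0.26, adjusted p = 0.583) and was −0.03 without NOS-null marrow replicates 1 and 2. Thbd (chromosome 2, 148404466 to 148408188, minus strand), thrombomodulin, was at 6123, 5497, 5899 and 6768 against 5099, 5842, 6181 and 6664 scaled reads. Its groups overlapped almost fully (log2 change 0.03, 95% interval −0.19 to 0.26, adjusted p = 0.86, and 0.09 without NOS-null marrow replicates 1 and 2). The other 3 protease-activated receptor genes were low, and neither of the 2 tested passed (1 at an unadjusted p under 0.05). F2rl1, a receptor for trypsin-like proteases, was at 4.56 ± 1.00 against 5.65 ± 0.91 FPKM (log2 change −0.32, adjusted p = 0.278). F2rl2, a cofactor for thrombin on platelets, was at 0.596, 0.660, 0.156 and 0.0575 FPKM with NOS-null marrow, below every value with WT marrow (1.30 to 1.63 FPKM), and had an adjusted p of 0.0536 (log2 change −2.16, SE 0.55).

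Procr (chromosome 2, 155751117 to 155755471, plus strand), the endothelial protein C receptor gene, was at 33.8, 82.3, 42.4 and 54.4 scaled reads with NOS-null marrow. With WT marrow it was at 31.8, 34.7, 29.6 and 23.6. In 3 of the 4 NOS-null marrow libraries it lay above all WT marrow libraries, and replicate 1 lay among them. The log2 change was 0.75 (SE 0.26, 95% interval 0.16 to 1.33) and did not pass (limma adjusted p = 0.114). Without NOS-null marrow replicate 2, the highest library, it was 0.51 (adjusted p = 0.246), and without replicate 1 it was 0.93 (adjusted p = 0.0624). Mesothelium, the lining of the lung surface and another known source of Procr, had a summed marker level of 90.0, 145, 106 and 129 FPKM with NOS-null marrow, against 106, 69.8, 60.9 and 59.9 FPKM with WT marrow. NOS-null marrow replicate 2 was thus highest in both measures and replicate 1 lowest of its group in both. WT marrow replicate 1, however, exceeded NOS-null marrow replicate 1 in the sum but lay below it in Procr. Of the single mesothelial markers, Upk1b and Msln peaked in NOS-null marrow replicate 2. Upk3b peaked in WT marrow replicate 1, and Lrrn4 and Wt1 in NOS-null marrow replicate 4. Of 5 mesothelial genes, 4 were tested, all had a positive change, and Upk1b, a urothelial and mesothelial membrane protein gene, rose (0.49, adjusted p = 0.047). The Upk1b call was lost under 10 of 17 alternatives, among them those without NOS-null marrow replicate 2, 3 or 4 and without any 1 of the WT marrow libraries (adjusted p up to 0.13). None was at 0 throughout, and the part of mesothelium in the Procr values was not tested.

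Among the plasminogen activators, the tissue type prevailed and the urokinase type was close to the limit of measurement. Plat (chromosome 8, 22757727 to 22782844, plus strand), tissue-type plasminogen activator, was at 813, 1143, 1019 and 905 against 855, 877, 795 and 769 scaled reads. In 3 of 4 NOS-null marrow libraries it exceeded all WT marrow libraries (log2 change 0.23, SE 0.11, 95% interval −0.01 to 0.46, adjusted p = 0.205). Plau (chromosome 14, 20836660 to 20843385, plus strand), urokinase, was at 6.15, 5.21, 2.96 and 10.9 against 15.9, 41.2, 13.8 and 9.45 scaled reads. Of the NOS-null marrow libraries 3 lay below all WT marrow libraries and replicate 4 lay among them (log2 change −1.43, SE 0.47, adjusted p = 0.0979). Plau entered the test only because 1 NOS-null marrow and 3 WT marrow libraries reached the required 10 scaled reads, and 3 reads of a library correspond to 2.81 to 3.26 scaled reads. WT marrow replicate 2 held the highest value, and without it the log2 change was −1.03 (adjusted p = 0.195).

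The other genes of the plasminogen system, which encode plasminogen, its inhibitors and its cell surface binding proteins, gave no call. Of 10 such genes 5 were tested, none passed (2 at an unadjusted p under 0.05), and 4 of the 5 changes were negative with a median of −0.30. The 2 most abundant were Anxa2 and S100a10, whose proteins form a complex that binds plasminogen and its tissue-type activator on endothelium. Anxa2 was at 873 ± 55.1 against 1076 ± 83.0 FPKM without overlap (log2 change −0.30, adjusted p = 0.0695), and S100a10 at 353 ± 24.6 against 402 ± 46.0 FPKM (−0.18, adjusted p = 0.229). Hrg, a plasma protein gene of the list, was listed at 0 in every library.

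Plaur (chromosome 7, 24462484 to 24475968, plus strand), the urokinase receptor, was at 948, 617, 663 and 715 scaled reads with NOS-null marrow. With WT marrow it was at 427, 426, 602 and 564. The groups did not overlap, and NOS-null marrow replicate 1 was the highest. The means were 736 ± 147 against 505 ± 91.7 (log2 change 0.54, SE 0.16, 95% interval 0.19 to 0.89), and the difference did not pass over all genes (limma adjusted p = 0.0713). Without NOS-null marrow replicate 1 it was 0.41 (adjusted p = 0.104). The receptor exceeded its ligand gene in every library, with a log2 ratio of Plaur to Plau in FPKM of 8.11, 7.74, 8.65 and 6.88 with NOS-null marrow, against 5.59, 4.22, 6.29 and 6.75 with WT marrow, without overlap, which rests on the few Plau reads.

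Leukocyte markers were read beside Plaur. Neutrophil markers summed to 41948, 3797, 1673 and 2153 FPKM in NOS-null marrow replicates 1 to 4, against 1390, 668, 1587 and 580 FPKM with WT marrow. NOS-null marrow replicate 1 stood far above the other 7 libraries in this sum and was also the highest in Plaur, but replicate 2, second in the sum, was the lowest of its group in Plaur. Of the 8 neutrophil genes listed 6 were tested, all with a positive change (median 2.47), and none passed (5 at an unadjusted p under 0.05). Macrophage and monocyte markers summed to 452, 437, 243 and 261 FPKM against 255, 226, 225 and 171 FPKM. Siglec5, the table's symbol for an eosinophil and alveolar macrophage lectin, fell (−1.52, adjusted p = 0.00248) as the one gene called of 9 tested. Of these 9 changes 7 were positive and 2 negative, and 7 reached an unadjusted p under 0.05, against 26.6% of all tested genes. The other negative change was that of Marco, which rests on few reads and did not pass (−2.81, adjusted p = 0.0585). No tested marker of either list was at 0 throughout, and their part in the Plaur difference was not tested.

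**Figure D3:**
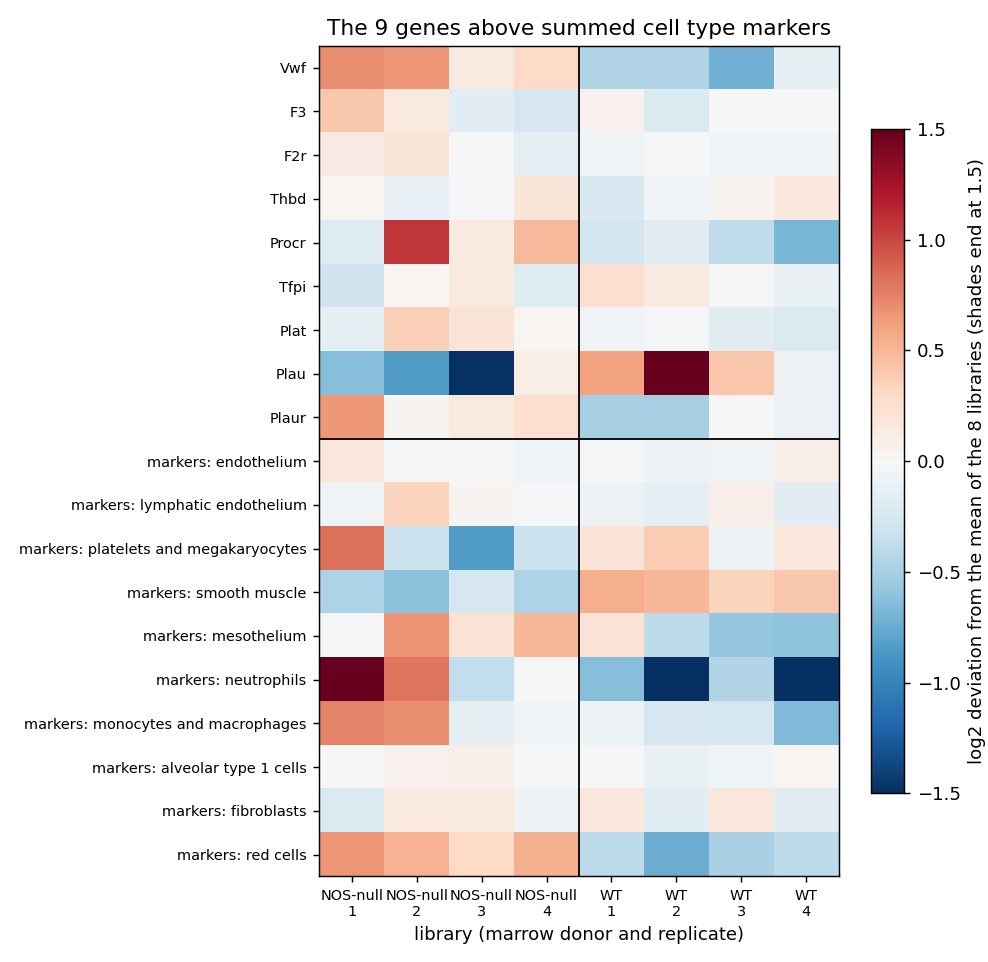
Deviation of each gene from its mean over the 8 libraries, log2(scaled reads + 1), above the same for the summed FPKM of each marker list (log2), with NOS-null marrow libraries at the left and shades ending at 1.5. Vwf is above its mean in all 4 NOS-null marrow libraries while endothelial markers stay near 0. Procr and the summed mesothelial markers are both highest in NOS-null marrow replicate 2.

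Most of the clotting factor genes of plasma, many of them liver genes, were low in lung RNA. Of 15 such genes 6 reached the test and none passed (0 at an unadjusted p under 0.05, median log2 change 0.16), and the other 9, among them prothrombin (F2) and the fibrinogen chains Fga and Fgb, had at most 0.575 FPKM in any library. F13a1, the fibrin crosslinking subunit made by platelets and macrophages, was the most abundant, at 53.9, 10.5, 17.0 and 22.6 FPKM with NOS-null marrow, against 11.7 to 20.7 FPKM with WT marrow (log2 change 0.39, adjusted p = 0.561). F7, the partner of tissue factor, was at 8.82 ± 0.42 against 7.72 ± 0.73 FPKM, a small difference without overlap that did not pass (0.19, adjusted p = 0.287). None of the 3 vitamin K cycle genes, whose enzymes make clotting factors able to bind calcium, passed (1 at an unadjusted p under 0.05). Vkorc1 was at 55.9 ± 7.93 against 72.4 ± 6.86 FPKM without overlap (−0.38, adjusted p = 0.0909), and Vkorc1l1 at 12.5 ± 0.89 against 10.8 ± 0.52 FPKM (0.20, adjusted p = 0.279).

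Among 5 receptors that clear Vwf, the activators or their inhibitor complexes, all changes were positive (median 0.26) and 1 passed. Lrp1, which takes up complexes of plasminogen activators with their inhibitors, rose to 1708 ± 79.2 scaled reads, against 1201 ± 178 (log2 change 0.52, SE 0.10, adjusted p = 0.0268). Its FPKM values were 13.6, 14.8, 13.5 and 13.6 with NOS-null marrow, against 8.77, 9.29, 9.05 and 11.9 with WT marrow. Vldlr, a related receptor, did not overlap either but did not pass (0.48, adjusted p = 0.0645), and the mannose receptor gene Mrc1, the most abundant of the list, was at 29.5 ± 8.40 against 24.2 ± 3.46 FPKM (0.26, adjusted p = 0.354). Lrp1 did not pass when NOS-null marrow replicate 2, NOS-null marrow replicates 1 and 2 together, or any of WT marrow replicates 1 to 3 were left out (adjusted p up to 0.0957).

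Of 10 transcription factors known to act on these genes, Egr1 fell and the other 9 did not pass, with a median log2 change of −0.10. An unadjusted p under 0.05 was reached by 5 of the 10, against 26.6% of all tested genes. The groups did not overlap for 4 (Egr1, Klf6, Ets1 and Hif1a), against 17.1% of all tested genes. Egr1, an early growth response factor known to induce F3, was at 120 ± 16.7 against 197 ± 28.9 scaled reads without overlap (log2 change −0.71, SE 0.14, adjusted p = 0.028). The 2 most abundant were Klf2, a flow-sensing factor known to raise Thbd, at 109 ± 26.7 against 120 ± 28.2 FPKM (−0.14, adjusted p = 0.655), and Klf6 at 112 ± 15.9 against 90.3 ± 6.88 FPKM (0.31, adjusted p = 0.108). Erg, an endothelial factor known to act on Vwf, had a log2 change of 0.00 (adjusted p = 0.995). Egr1 did not pass when NOS-null marrow replicate 2, NOS-null marrow replicates 1 and 2 together, or any of the 4 WT marrow libraries were left out (adjusted p up to 0.103). Over all 8 pathway lists 45 of 65 genes were tested, of which 2 rose, 2 fell and 41 did not pass (8.89%, against the 4.05% of all tested genes), with a median log2 change of −0.002.

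**Figure D4:**
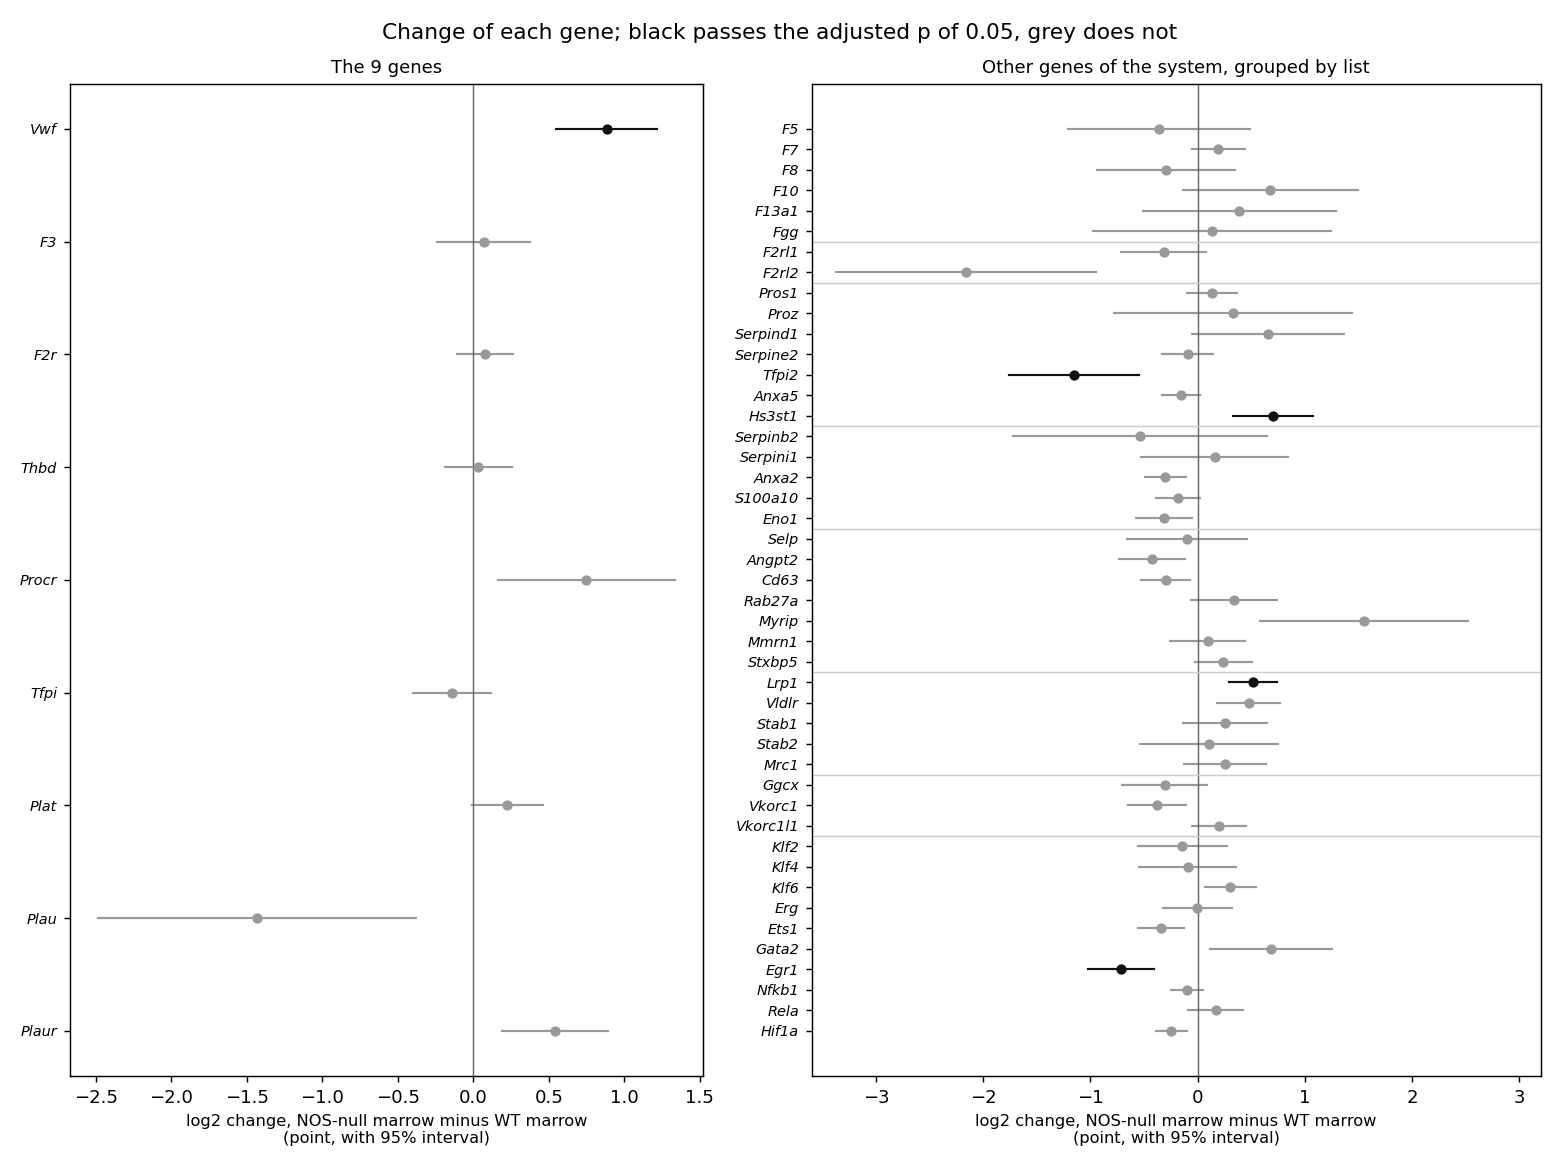
Log2 change with its 95% interval for the 9 genes (left) and the 45 tested genes of the pathway lists (right, lists parted by lines), with black for an adjusted p under 0.05 and grey for the rest. Vwf is the black point at the left, and Tfpi2, Hs3st1, Lrp1 and Egr1 are black at the right.

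The sequence before the start of 5 of the 9 genes (F3, F2r, Procr, Plaur and Tfpi) was found in a RefSeq table of promoters on GRCm38.p6, and Vwf, Thbd, Plat and Plau were not matched. The 250 bases before each start were searched for TGANTCA, the site of the AP-1 (Fos and Jun) factors, which reads the same on both strands. The motif was chosen with the sequences in view. It was found in 4 of the 5 genes, and in 2113 of 27025 genes of the table (7.82%). Because of that choice, the share among the 5 genes cannot be weighed against the share in the table. Whether these genes carry the motif more often than others was not tested. The 4 genes with a match are shown side by side. Plaur and Procr had log2 changes of 0.54 and 0.75, and F3 and F2r had 0.07 and 0.08. None of these changes passed. The capitals mark each match, which begins 69 bases before the start in Plaur, 154 in Procr, 146 and 135 in F3 and 204 in F2r. Sequences run 5′ to 3′ on the gene's strand and end where an annotated exon of the gene begins. In Procr and F2r the RefSeq start lies within that exon, so the 100 and 21 bases next to the start are not shown.
Plaur (chr7:24462233-24462482, plus strand): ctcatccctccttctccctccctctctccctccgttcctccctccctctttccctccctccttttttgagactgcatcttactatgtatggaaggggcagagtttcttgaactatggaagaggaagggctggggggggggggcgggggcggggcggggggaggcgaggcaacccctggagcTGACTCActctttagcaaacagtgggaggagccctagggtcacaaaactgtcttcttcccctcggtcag
Procr (chr2:155750967-155751116, plus strand): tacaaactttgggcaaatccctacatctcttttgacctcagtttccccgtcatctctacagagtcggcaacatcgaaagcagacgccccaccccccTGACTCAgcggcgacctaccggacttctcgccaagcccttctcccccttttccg
F3 (chr3:121723287-121723536, plus strand): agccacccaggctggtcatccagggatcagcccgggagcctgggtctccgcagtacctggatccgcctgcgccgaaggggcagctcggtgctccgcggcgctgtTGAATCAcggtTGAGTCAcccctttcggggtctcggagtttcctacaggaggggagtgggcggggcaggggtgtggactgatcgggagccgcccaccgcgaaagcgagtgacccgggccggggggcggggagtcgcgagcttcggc
F2r (chr13:95618488-95618716, minus strand): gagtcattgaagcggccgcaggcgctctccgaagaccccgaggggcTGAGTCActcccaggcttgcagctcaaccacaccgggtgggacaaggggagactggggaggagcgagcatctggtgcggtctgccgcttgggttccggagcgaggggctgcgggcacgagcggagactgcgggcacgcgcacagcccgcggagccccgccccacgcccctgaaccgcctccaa
A match describes the letters only, and binding was not measured. The F3 stretch also overlaps an annotated exon of the gene Gm43823.

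The 9 genes did not vary as a block over the 8 libraries. On the log2 scale the mean absolute difference between 2 genes' deviations was smallest for F3 and F2r (0.13) and for F2r and Plat (0.14), and largest for Vwf and Plau (1.16) and Procr and Plau (1.09). Within a group the coefficient of variation ran from 8.76% (Thbd) to 52.9% (Plau) with NOS-null marrow and from 2.43% (F2r) to 71.4% (Plau) with WT marrow. It was larger with NOS-null marrow for 7 of the 9 genes, the others being Thbd and Plau.

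**Figure D5:**
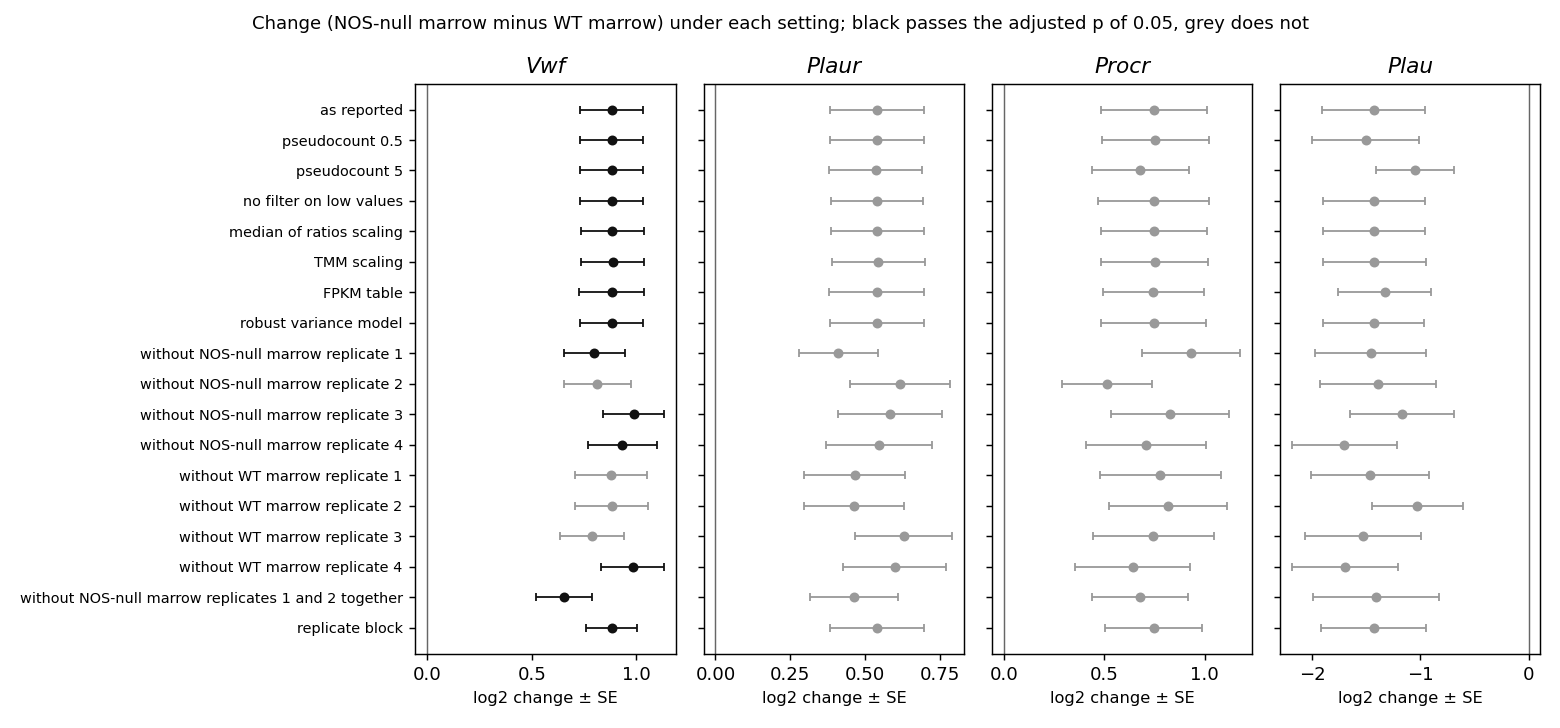
Log2 change (NOS-null marrow minus WT marrow, with SE) of Vwf, Plaur, Procr and Plau as reported and under each other setting, with black for an adjusted p under 0.05 and grey for the rest. Vwf stays positive between 0.65 and 0.99 and is grey in the 4 fits named above, and the other 3 genes are grey in every fit.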

How the data were processed

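Per the labels' protocols, mRNA from 8 lungs (RNA integrity number 7.8 to 8.2) was made into libraries and read as 75 bp single ends, with strand not stated. Per the submitters' processing notes, CASAVA 1.8.2, TopHat2 2.0.13, Bowtie2 2.2.3, SAMtools 0.1.19 and Cufflinks 2.2.1 were used on mm10, and no source used here gives the annotation or settings. The authors deposited a gene table of signal values, read counts divided by 1 size factor per library (judged from the values), and a table of FPKM values. Whole reads were not recovered, because some values lie below the step taken as 1 read, so no count model was used.

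Groups were read from titles, since the design text describes both groups as NOS-null. The 14008 genes that reached 10 scaled reads in 4 or more libraries entered limma 3.58.1 (trend, R 4.3.3) as log2(value + 1), a scale that understates changes of low genes, and were Benjamini-Hochberg adjusted. The model was tested on simulated data. FPKM served for levels, ratios and an alternative (pseudocount 0.1). TMM (trimmed mean of M-values) factors were computed directly from the deposited values. Alternatives were other pseudocounts, filter, scaling, table, variance model, libraries left out and a replicate block. No batch is given in the labels, so none was modelled. No 2 libraries were identical. No exon of the 9 genes overlaps another annotated gene.

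Some listed genes and results that need them are not reported here. The members and lists were chosen with earlier results of these data known. Named are the members, the called and the 2 most abundant genes of each pathway list, called and absent markers, Nos genes, the 3 genes most like a called member, and, added after values were seen, other list genes given with their values. Listed symbols not found in the table were Plgrkt, Ly6g, Adgre1, Siglecf and Hbb-bs.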

Additional observations from a re-analysis of the deposited data

Results flagged for a closer look

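In 3 of 36 groups of 4 libraries examined, 1 library stood far from the other 3, where chance gives about 1 group in 20. Lrp1, the clearance receptor gene, was at 1826 scaled reads in NOS-null marrow replicate 2 and at 1464 in WT marrow replicate 4, each far above the rest of its group. Egr1 was at 145 scaled reads in NOS-null marrow replicate 4, above the other 3 NOS-null marrow libraries and below every WT marrow library.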

How the results depend on the processing

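Of the 9 genes, 1 (Vwf) was called under 13 of 17 alternatives and 0 under the other 4, which each left out 1 library (range 0 to 1). The number of genes called over the table, 567 as reported, ran from 71 to 798 over the fits without 1 library. It was 181 without NOS-null marrow replicates 1 and 2 together and 135 with a replicate block. Leaving out libraries means fewer samples, and the cause of the fall beyond that was not tested. Without the filter on low values it was 424. Vwf passed under both pseudocounts, without the filter, under both scalings, in the FPKM table and with the robust model (adjusted p 0.0172 to 0.0248), and over all alternatives its adjusted p ran from 0.0145 to 0.0744.

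The other 8 genes passed under none of the 17 alternatives. Sign changes were seen in 3 of them, all with changes near 0. F3 was at −0.055 without NOS-null marrow replicate 1 (range without 1 library −0.055 to 0.16) and −0.17 without replicates 1 and 2 together. F2r was at −0.035 without these 2. Thbd was at −0.021 without NOS-null marrow replicate 4 and −0.039 without WT marrow replicate 1 (range −0.039 to 0.090).

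Same-numbered libraries of the 2 groups deviated together with correlations of −0.0027 to 0.17, and 2 of 4 NOS-null marrow libraries were closest to their own number, so the numbers were not taken as pairs. With the replicate block 1 of the 9 genes, Vwf, was called (adjusted p = 0.0304). Tfpi2, Hs3st1 and Lrp1 did not pass with the replicate block, and Tfpi2 and Hs3st1 not without the filter. Depth limits Plau and F2rl2, which rest on few reads.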
